A study of Drosophila melanogaster with 4 samples.

Results

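The genes described here encode 5 transmitter receptors of the fly nervous system, nAChRbeta1, DopEcR, 5-HT1A, 5-HT2A and CG11155. They were chosen by name, through the gene symbol or the NCBI gene identifier that the array annotation lists, and they are 5 of the 1449 genes with a value. All 5 were among the 1444 genes measured on at least 3 of the 4 arrays. Unmated Oregon R wild-type males of Drosophila melanogaster were fed for 7 days on medium containing pilocarpine at 1.5 mg/ml, or on plain medium, called normal food, and the RNA of their heads was hybridised to two-colour cDNA arrays. The males were 3 to 4 days old at the start, the heads of several vials were pooled, and the samples share strain, sex, age and tissue. On each of the 4 arrays 1 treated pool met the untreated pool from the same parallel set, which the labels call a biological replicate. Whole heads hold brain, eyes, fat body and muscle, so fewer cells of a type and less RNA per cell cannot be told apart.

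Transmitter receptors turn a released chemical signal into a change in the receiving cell. Ionotropic receptors are channels that open when the transmitter binds, whereas G-protein-coupled receptors act through second messengers such as cyclic AMP and calcium. Acetylcholine is the main fast excitatory transmitter of the insect brain and glutamate that of the neuromuscular junction, while dopamine and serotonin modulate arousal, feeding, sleep and memory. Pilocarpine is an agonist of muscarinic acetylcholine receptors, which are coupled to G proteins, and a common means of inducing seizures in rodents. nAChRbeta1 encodes a subunit of nicotinic acetylcholine receptors, which are channels, and CG11155 a kainate-type glutamate receptor, also a channel. The other 3 encode G-protein-coupled receptors: DopEcR answers to dopamine and to ecdysteroid hormones, and 5-HT1A and 5-HT2A to serotonin.

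Values below are the log2 of pilocarpine over normal food, with the median of each array set to 0, so that 1 stands for a doubling. On replicates 1 and 2 the treated RNA carried Cy5, and on replicates 3 and 4 it carried Cy3. The labels do not say which channel is the numerator of the deposited ratio. Cy5 over Cy3, the default of the scanner software, was taken as the likely reading, and the sign of replicates 3 and 4 was turned accordingly. In the opposite reading the treated RNA is the numerator on all 4 arrays and replicates 3 and 4 keep their deposited sign. Replicates 1 and 2 are the same in both, so a direction that rests on replicates 3 and 4 is not settled. Both readings take the treated RNA as the numerator on replicates 1 and 2, which the labels do not state. With the untreated RNA as the numerator there, these arrays would turn sign as well, so they do not settle a direction either. Across 748 genes on all 4 arrays, Pearson's r was 0.45 between replicates 3 and 4 and -0.08 between replicates 1 and 2, pairs of equal dye orientation that both readings leave as they are. In the likely reading r with replicates 3 and 4 was -0.09 and -0.24 for replicate 1, and 0.16 and 0.41 for replicate 2. The opposite reading turns the signs of these values across the orientations. Genes are not independent replicates, so no p is attached to these values. The arrays measured between 4428 and 6392 spots each.

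None of the 5 receptor genes passed the test over all 4 arrays in either reading once the arrays were centred. In the likely reading 2 of 1444 genes passed in any direction (0.139%), and 0 in the opposite reading (limma, adjusted p threshold 0.05), where 126 genes had an unadjusted p under 0.05 (8.73%). CG11155 and DopEcR differed 2.09-fold and 2.03-fold between treated and untreated heads on replicate 3, and 1.94-fold and 1.63-fold on replicate 4. On replicates 1 and 2 DopEcR lay near the array median and CG11155 was at 0.26 and -0.25, with 31.7% and 50.7% of genes farther from 0. nAChRbeta1, 5-HT1A and 5-HT2A were closer to the array median than these on replicates 3 and 4, wherever they were measured. On replicates 1 and 2 5-HT2A lay farther from it, at -0.49 and -0.52, than the other members measured there.

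CG11155, the kainate-type glutamate receptor gene, had log2 ratios of 0.26 on replicate 1, -0.25 on replicate 2, 1.06 on replicate 3 and 0.96 on replicate 4 in the likely reading. The 2 dye-swapped arrays were thus high and close to each other, and the other two lay on either side of 0. On replicate 3 only 30 of 1444 genes, and on replicate 4 only 35 of 1245, lay farther from 0 than CG11155. Its mean over the arrays was 0.51 ± 0.62 (SD, n = 4), with a 95% interval of 0.05 to 0.96 and a limma adjusted p = 0.624. Read the other way, replicates 3 and 4 were at -1.06 and -0.96 and the mean was -0.50 ± 0.62 (SD, n = 4; limma adjusted p = 0.562).

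DopEcR, the gene of a receptor for dopamine and ecdysteroids, followed the same order of arrays. It had 0.07 on replicate 1, -0.08 on replicate 2, 1.02 on replicate 3 and 0.70 on replicate 4 in the likely reading. Replicates 3 and 4 stood apart from replicates 1 and 2, both of which were closer to 0 than over 80% of genes on their array (80.2% and 83.6%). The mean was 0.43 ± 0.52 (SD, n = 4), with an interval of 0.01 to 0.84 and a limma adjusted p = 0.653. The opposite reading gave -0.43 ± 0.51 (SD, n = 4; limma adjusted p = 0.568), with replicates 3 and 4 at -1.02 and -0.70.

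DopEcR is the only one of the 5 with more than 1 probe, which gives a second look at the same RNA. Its first probe had 1.05 and 0.62 on replicates 3 and 4 and its second 0.99 and 0.79, so both probes placed the gene far from the median on both arrays. On replicate 1 they were at 0.26 and -0.12, on different sides of 0. Replicate 2 measured the second probe alone, at -0.08, so the gene's value there rests on 1 probe. Each probe was also spotted in duplicate. The duplicates of DopEcR differed by at most 0.371 on the log2 scale, on replicate 2. Those of CG11155 differed by at most 0.471, on replicate 3, where 3.65% of duplicate pairs differed by more. Both gaps are smaller than the distance of either gene from the median on replicate 3. The gap of 0.371 is larger than the distance of DopEcR from the median on replicate 2, where it was at -0.08.

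**Figure D1:**
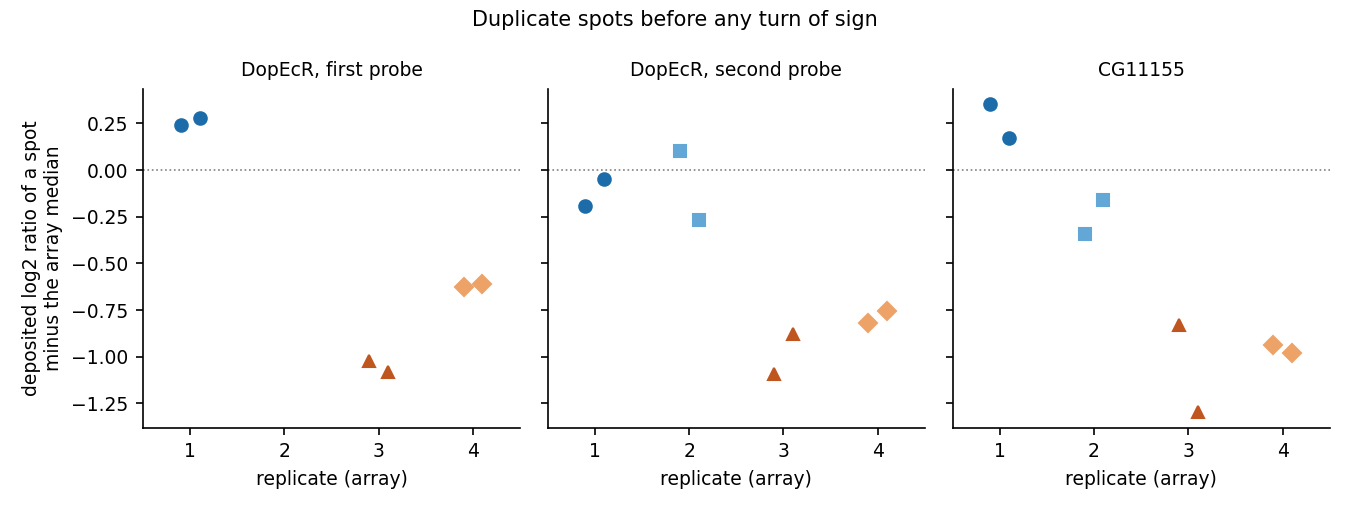
Deposited log2 ratio of each spot minus the array median, before any turn of sign, on each array for the 2 probes of DopEcR and the probe of CG11155; each point is 1 spot. Both spots of every probe lie lower on replicates 3 and 4 than on replicates 1 and 2, and the first probe of DopEcR has no value on replicate 2.

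The dye-swapped arrays were also fitted alone, which compares 2 pools of treated with 2 pools of untreated heads. The treated RNA carried Cy3 on both arrays, so dye and treatment cannot be told apart in this fit. The same holds for replicates 1 and 2 alone, where it carried Cy5. CG11155 then averaged 1.01 ± 0.07 (SD, n = 2; limma adjusted p = 5.46e-04) and DopEcR one of 0.86 ± 0.22 (SD, n = 2; limma adjusted p = 0.00609) in the likely reading. Of 1245 genes in that fit 56 passed in either direction (4.5%), and CG11155 and DopEcR ranked 17th and 27th by p. The opposite reading leaves sizes and p-values as they are and reverses the signs. The p-values rest on a spread pooled over all genes, with a shared standard error of 0.22, because limma estimated a variance common to all genes in this fit. They hold only as far as that common variance does, since 2 arrays leave 1 residual degree of freedom per gene. On replicates 1 and 2 alone CG11155 was at 0.01 ± 0.36 and DopEcR at -0.0065 ± 0.11 (SD, n = 2 each), with intervals of -0.51 to 0.53 and -0.49 to 0.48. No gene of 952 passed there (limma, 0%), and 34 had an unadjusted p under 0.05.

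The difference between the dye orientations was tested with the orientation as a second term in the fit of all 4 arrays. The orientation term was -0.50 for CG11155 (limma adjusted p = 0.201, unadjusted p = 0.00349) and -0.43 for DopEcR (limma adjusted p = 0.301, unadjusted p = 0.00936). Neither passed over all genes, and 2 of 1444 genes did. For a gene on all 4 arrays this term equals the mean in the opposite reading, so dye and treatment cannot be told apart by it. Without centring, the opposite reading put DopEcR at -0.76 (limma adjusted p = 0.00697) and CG11155 at -0.83 (limma adjusted p = 0.00331), both past the threshold as lower. So were 16.4% of all genes, and the medians of all 4 arrays lie below 0 as deposited.

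nAChRbeta1 was the only acetylcholine receptor gene measured. It had -0.16 on replicate 1, 0.32 on replicate 3 and 0.34 on replicate 4 in the likely reading, and no value on replicate 2. Replicates 3 and 4 were nearly equal and replicate 1 had the other sign. The mean was 0.17 ± 0.28 (SD, n = 3), with an interval of -0.24 to 0.58, or 0.85-fold to 1.49-fold, and a limma adjusted p = 0.927. It lay below the median on all 3 arrays in the opposite reading, at -0.27 ± 0.10 (SD, n = 3; limma adjusted p = 0.643), as did 16.4% of the 696 genes on 3 arrays. Without centring, its mean in the likely reading was 0.36. There the turn of replicates 3 and 4 also turned their array medians, which lie below 0 as deposited.

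The serotonin receptor genes differed from each other in the sign of their means in the likely reading and not in the opposite one. 5-HT1A, whose product lowers cyclic AMP, had -0.16, 0.17, 0.36 and 0.17 on replicates 1 to 4. Its values lay on both sides of 0 and none was outside the 5th to 95th percentile range of all genes. The mean was 0.14 ± 0.22 (SD, n = 4), with an interval of -0.19 to 0.47, or 0.87-fold to 1.38-fold (limma adjusted p = 0.933). The opposite reading put it at -0.13 ± 0.22 (SD, n = 4; limma adjusted p = 0.825).

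5-HT2A, whose product signals through calcium, was the only one of the 5 whose mean had the same sign in both readings. It had -0.49 on replicate 1, -0.52 on replicate 2 and -0.21 on replicate 3 in the likely reading, and no value on replicate 4. Of these values only that of replicate 3, the smallest in size, turns between the readings. The shared sign of the means therefore rests on replicates 1 and 2. Replicates 1 and 2, whose sign is the same in both readings, were nearly equal and both low: only 3.85% and 8.40% of genes lay lower on those arrays. The mean was -0.41 ± 0.17 (SD, n = 3), with an interval of -0.80 to -0.02 and a limma adjusted p = 0.636. It lay below the median on all 3 arrays, as did 11.5% of the genes on 3 arrays. In the opposite reading replicate 3 was at 0.21 and the mean at -0.27 ± 0.41 (SD, n = 3; limma adjusted p = 0.708).

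**Figure D2:**
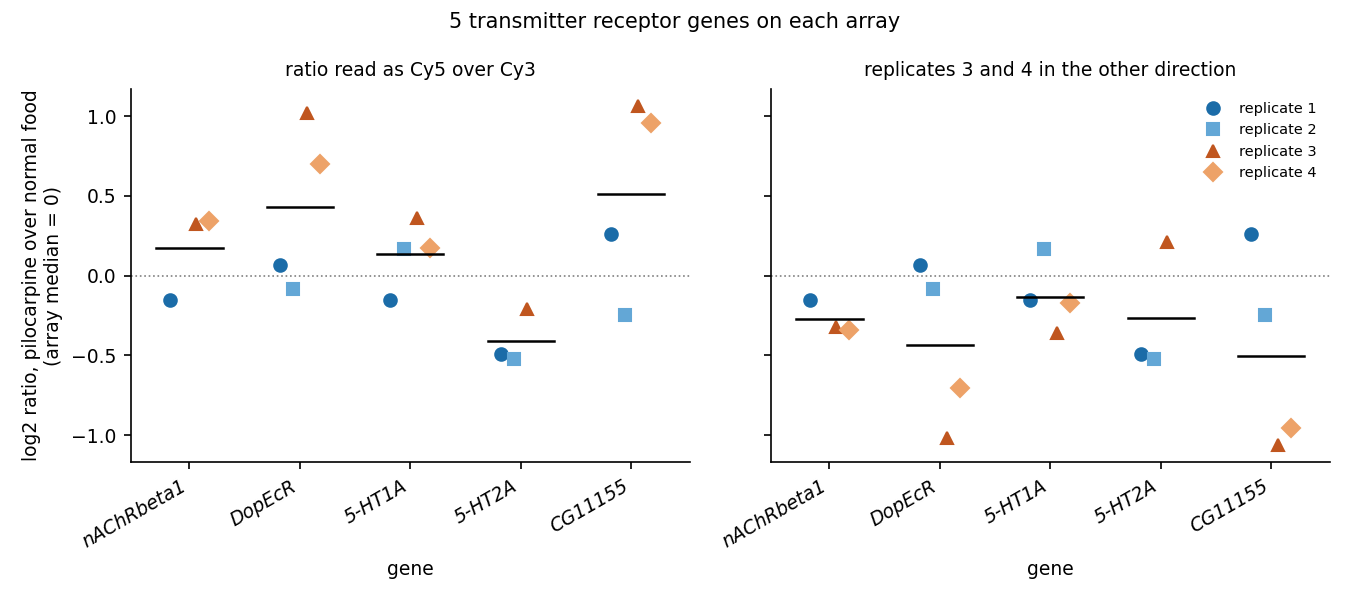
Log2 ratio of pilocarpine over normal food for the 5 receptor genes on each array, with the array median at 0, in the likely reading on the left and the opposite one on the right; points are arrays and bars are means. Replicates 3 and 4 put DopEcR and CG11155 between 0.70 and 1.06 on the left and between -1.06 and -0.70 on the right, while 5-HT2A lies near -0.5 on replicates 1 and 2 in both.

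Before the adjustment for all genes, CG11155, 5-HT2A and DopEcR had a limma p under 0.05 in the likely reading. The same held for 107 of 1444 genes (7.41%), and the 5 were chosen with these results known, so the share is a description. None of the 5 had one in the opposite reading, beside the 8.73% of genes given above. In both readings the spread of CG11155 and DopEcR over arrays was among the wider ones: 6.51% of genes had a larger SD than CG11155 and 13.0% than DopEcR in the likely reading, and 6.65% and 13.0% in the opposite one. The spread of the other members depended on the reading. In the likely reading 80.7% of genes varied more than 5-HT2A, 69.8% more than 5-HT1A and 53.0% more than nAChRbeta1. These shares were 23.6%, 64.4% and 91.7% in the opposite reading.

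**Figure D3:**
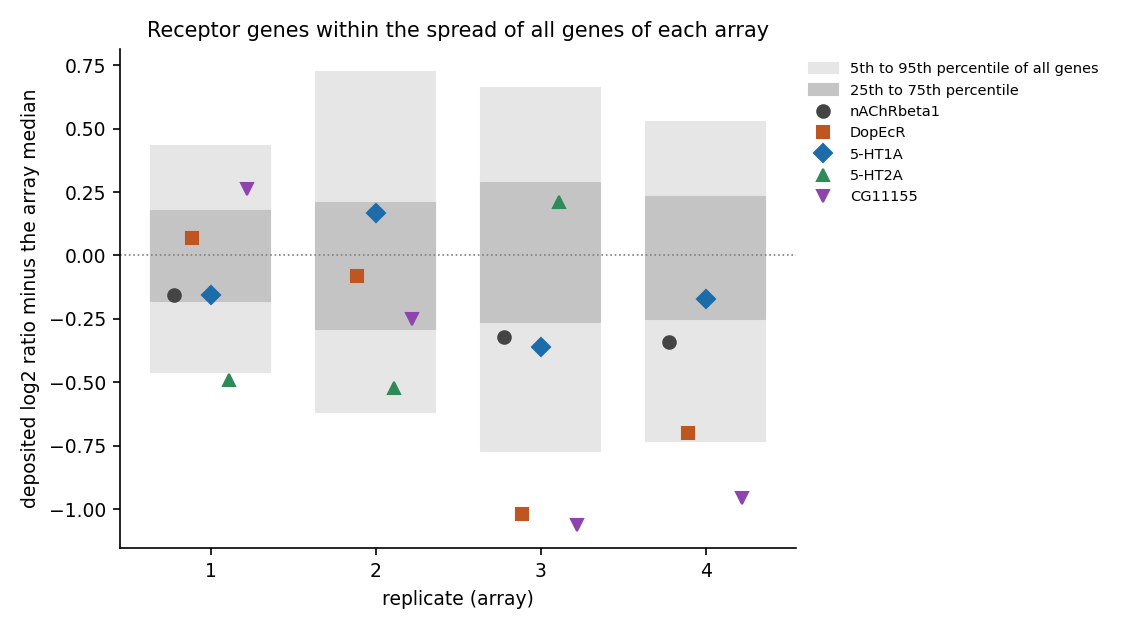
Deposited log2 ratio minus the array median for the 5 receptor genes on each array, over grey bands with the 25th to 75th and 5th to 95th percentiles of all genes on that array. CG11155 lies below the wide band on replicates 3 and 4, DopEcR on replicate 3, and 5-HT2A on replicate 1.

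**Figure D4:**
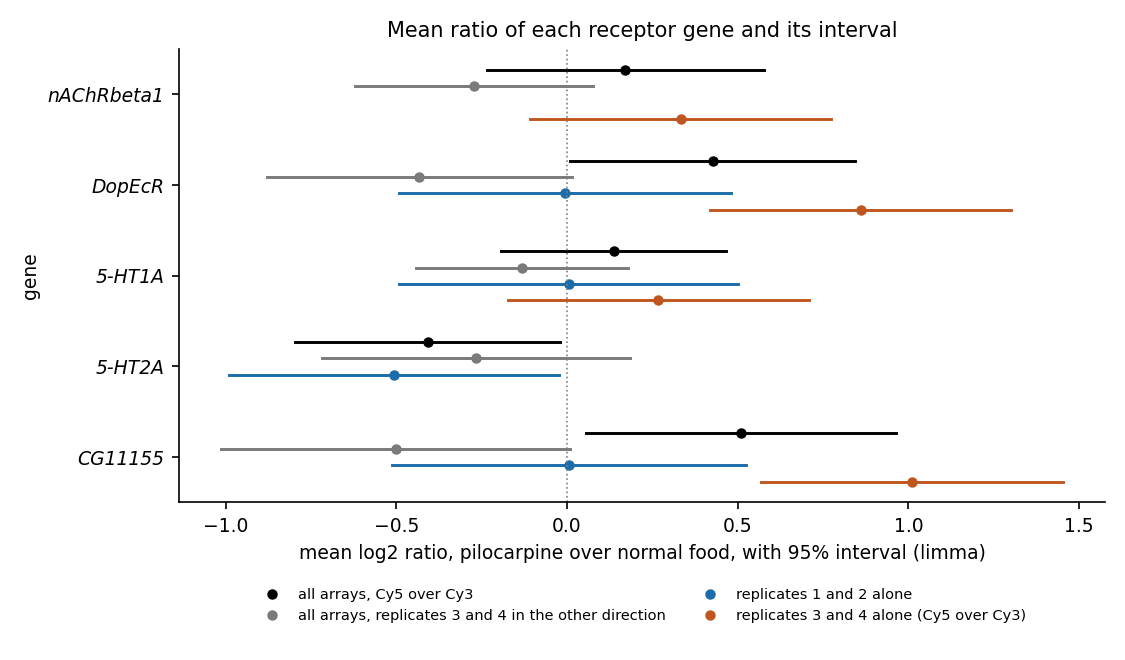
Mean log2 ratio of each receptor gene with its 95% limma interval over all arrays in both readings and for each pair of arrays of equal dye orientation. The intervals of DopEcR and CG11155 lie above 0 on replicates 3 and 4 alone, drawn in the likely reading (below 0 in the opposite one), and are centred near 0 on replicates 1 and 2 alone; nAChRbeta1 lacks replicate 2 and 5-HT2A lacks replicate 4, so each misses 1 pair.

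The genes nearest to each member in pattern were found by the root mean square difference of the centred log2 ratios over the arrays the member has, a measure that is the same in both readings. Among 747 genes CG11155 was the nearest to DopEcR, at 0.18, followed by Atf6, which encodes a transcription factor of the endoplasmic reticulum stress response, at 0.18, and Cow, which encodes a Wingless-binding protein, at 0.22, where the median gene was at 0.70. For CG11155 the nearest were trbd, a deubiquitinase gene, and CG2875, both at 0.13, and then DopEcR at 0.18. CG11155 and DopEcR were both chosen with the results known, so their nearness to each other is a description. psidin, CG31099 and CG7739 were nearest to 5-HT1A, at 0.05 to 0.10 over 4 arrays. For 5-HT2A, over 3 arrays, these were eIF4B, a translation initiation factor gene, l(2)34Fc and Tctp, at 0.12 to 0.13. CG31781, the RNA-binding protein gene Hrb87F and CG40191 were nearest to nAChRbeta1, at 0.04 to 0.05 over 3 arrays.

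The 5 receptors were read beside all genes of 4 transmitter systems. The lists held 59 genes of receptors for acetylcholine, monoamines including histamine, glutamate and GABA, and of related channels. Of these, 28 were on the array and 9 were measured on at least 3 arrays. That is 32.1% of those on the array, beside 21.3% of the 6793 genes with a listed probe. For acetylcholine 6 of 13 receptor genes were on the array, and the muscarinic gene mAChR-B and the nicotinic genes nAChRalpha2, nAChRalpha4, nAChRbeta2 and nAChRbeta3 had no value. The dopamine receptor gene Dop1R1, the serotonin receptor gene 5-HT7 and the kainate receptor genes Grik, KaiR1D and Ekar also had none. Of the list of GABA receptors and related channels, the 4 genes on the array (Lcch3, alka, CG6927 and GABA-B-R3) were not measured.

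Of the 9 measured receptor genes 0 passed in either reading (limma, lowest adjusted p = 0.624 in the likely and 0.562 in the opposite reading), and 4 and 0 had an unadjusted p under 0.05, beside 7.41% and 8.73% of all genes. Of those 4, 3 are among the 5 receptors chosen with the results known. Their median log2 ratio was 0.12 in the likely and -0.21 in the opposite reading, beside -0.01 and 0.0014 over all genes. The 4 that are not among the 5 had medians of -0.04 and 0.08. Octbeta1R, an octopamine receptor gene, had -0.29, -0.73 and -0.38 on replicates 1, 3 and 4 in the likely reading. It was below the median on all 3, with a mean of -0.47 ± 0.23 (SD, n = 3; limma adjusted p = 0.624). The opposite reading put Octbeta1R at 0.27. Octbeta2R, a related octopamine receptor gene, was at 0.12 and at -0.21 in the opposite reading. The glutamate receptor genes GluRIIA, a subunit of the neuromuscular receptor, and GluClalpha, a glutamate-gated chloride channel, were at -0.13 and 0.04, and at 0.16 and -0.0089 in the opposite reading. On replicates 3 and 4 alone 8 of the receptor genes could be fitted, and CG11155 and DopEcR were the 2 that passed (limma, lowest adjusted p of the remaining receptor genes 0.148). Both are among the 5 chosen with the results known, and 56 of all 1245 genes (4.5%) passed in that fit.

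Enzymes and transporters of the same systems lay between -0.26 and 0.09 in the likely reading. Of the 10 such genes measured none passed in either reading. Ddc, the decarboxylase that makes dopamine and serotonin, was at 0.02, Hdc, which makes histamine, at 0.08, and Pu, which starts the synthesis of a cofactor of the monoamine enzymes, at -0.15. The genes t and speck, which encode a hydrolase of histamine conjugates and an acetyltransferase of monoamines, were at -0.26 and -0.11. Of the genes listed for glutamate, the glutamine synthetase gene Gs2 was at 0.09 and Gdh, which breaks glutamate down, at -0.08. The excitatory amino acid transporter gene Eaat2 of that list was at -0.18. Gad1, the enzyme that makes GABA, was at -0.18, and Gabat, which breaks it down, at -0.26. Ddc was at -0.20 and t at 0.11 in the opposite reading, so both changed sign, speck was at -0.37, and Gabat at -0.09. Of the 4 genes for acetylcholine synthesis, transport and breakdown none was measured.

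**Figure D5:**
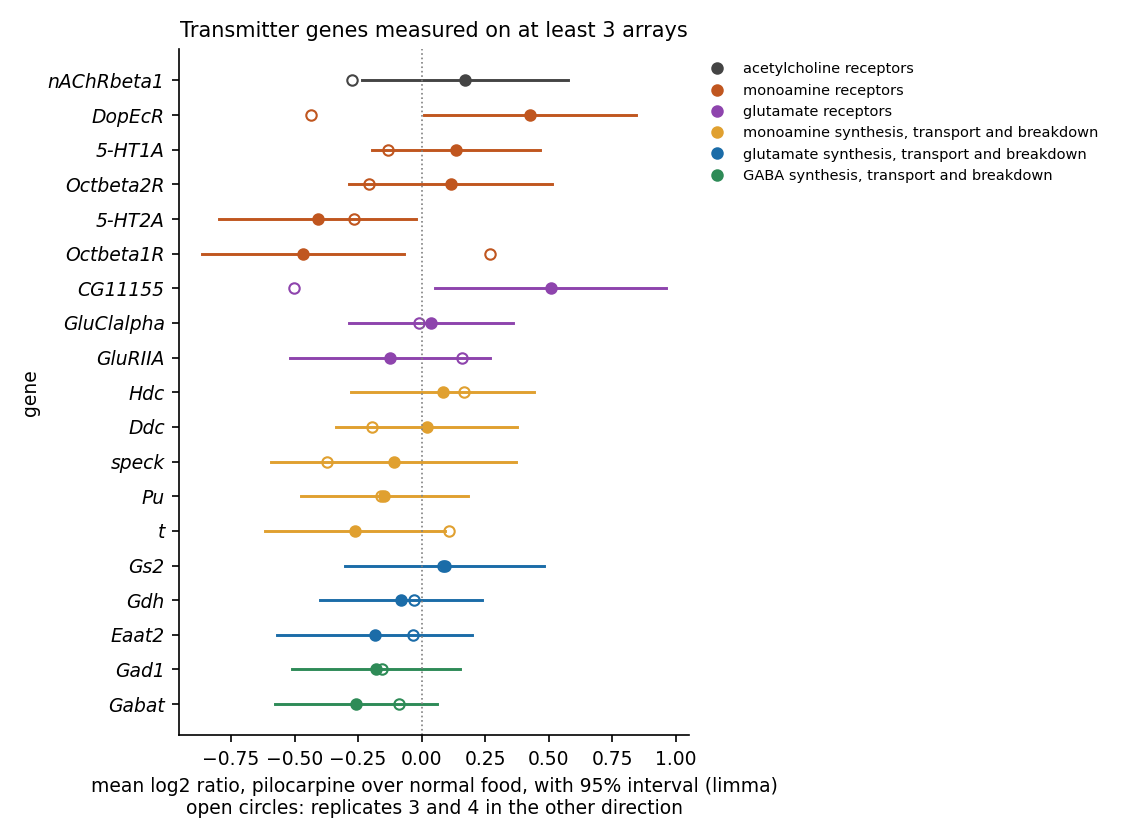
Mean log2 ratio with its 95% limma interval in the likely reading (filled circles) and mean in the opposite reading (open circles) for the 19 transmitter genes on at least 3 arrays. CG11155 at 0.51 and Octbeta1R at -0.47 are the extremes, and the open circles of CG11155, DopEcR and Octbeta1R lie on the other side of 0. So do those of nAChRbeta1, 5-HT1A, Octbeta2R, GluRIIA, GluClalpha, Ddc and t.

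Markers of the cell types in a head were examined beside these values. None of 11 neuron markers was measured on at least 3 arrays, with 2 on the array, so the share of neuronal RNA could not be followed. Of 7 measured fat body markers 1 rose in the likely reading, the lipoprotein gene apolpp (log2 ratio 1.45, limma adjusted p = 0.0274), which was at -0.24 in the opposite reading. The median of the fat body markers was -0.28 on replicate 1, 0.32 on replicate 3 and 0.45 on replicate 4, and 2 of them were measured on replicate 2, at 0.36 and 1.94. In the likely reading their median was thus above 0 on replicates 3 and 4, as DopEcR and CG11155 were, and both markers on replicate 2 were above 0 where DopEcR and CG11155 were below it. Over all arrays the median of the marker means was 0.13 in the likely reading, with 5 of 7 above 0. It was -0.30 in the opposite reading, with 6 of 7 below 0. The part of the fat body in these values was not tested. Of 6 muscle and 3 photoreceptor markers none passed, and the photoreceptor median was 0.21, 0.48, -0.30 and 0.06 on replicates 1 to 4 in the likely reading.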

How the data were processed

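Per the labels, slides were scanned with a GenePix scanner, quantified in GenePix Pro and normalized by ratio in Acuity without weak spots, then filtered on flags, saturation, uniformity and signal over background. The authors deposited 1 log2 ratio per spot and array, leaving filtered spots empty. Background correction therefore stands as deposited. The 11 cells at a ceiling of 16.61 were dropped, paired spots (the same gene in all 7609 listed pairs) were averaged, and each array was centred on its median over probes (-0.14, -0.48, -0.29 and -0.42 for replicates 1 to 4 as deposited).

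Of 3236 probes with a value, 1510 listed 1 gene, 13 several and 1713 none in an annotation that is old, and all but 29 of the 1510 had an identifier in the NCBI gene table of Release 6 plus ISO1 MT. Probes of a gene were averaged within each array. The 1444 genes with values on 3 or 4 arrays went into a limma fit (version 3.58.1, R 4.3.3, lmFit with eBayes; mean against 0, two-sided, Benjamini-Hochberg over these genes, threshold 0.05). The fit lent each gene 9.27 prior degrees of freedom in the likely reading and 5.22 in the opposite one. The procedure was tested on simulated data.

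The named genes are the 5 receptors, all measured genes of the transmitter lists, the highest and lowest of 3 further lists, and the 3 nearest in pattern to each receptor. The receptors and lists were chosen with earlier results of these data known. With 4 arrays the number of arrays limits the precision.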

Additional observations from a re-analysis of the deposited data

Results flagged for a closer look

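In the opposite reading Gdh, the glutamate dehydrogenase gene, had -0.278 on replicate 1 while its other 3 values lay close together, a gap of 0.969 of its whole range, above the critical value of Dixon's test for 4 samples. It was 1 of 12 transmitter genes on all 4 arrays examined in each reading, none was marked in the likely reading, and chance marks about 1 in 20.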

How the results depend on the processing

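The samples form 1 group, with both pools of a parallel set inside each ratio. The test of the mean against 0 therefore already uses the pairing, and no separate paired analysis was run. Over all 4 arrays, the readings gave nAChRbeta1, DopEcR, 5-HT1A and CG11155 opposite signs. In the opposite reading they were at -0.27, -0.43, -0.13 and -0.50 with the arrays centred, none past the threshold. With arrays not centred, a setting added after seeing the data, they were at -0.55, -0.76, -0.46 and -0.83. There DopEcR (limma adjusted p = 0.00697) and CG11155 (0.00331) passed as lower, as did 237 genes (16.4%) and none higher, on array medians that are all below 0. 5-HT2A was below 0 in each setting that could test it, all with the treated RNA as the numerator on replicates 1 and 2. Each of these settings held replicate 1, replicate 2 or both, so they share the same low values. Replicates 3 and 4 alone could not test it. On replicates 3 and 4 alone DopEcR (0.86) and CG11155 (1.01) passed, with 42 genes higher and 14 lower in the likely reading. On replicates 1 and 2 alone DopEcR was at -0.0065 and 0 genes passed, 34 having an unadjusted p under 0.05. Genes higher in the likely reading numbered 2, against 0 in the opposite one, 1 among genes on all 4 arrays, 18 with the dye covariate (and 1 lower) and 0 in the fit of single probes. Leaving out 1 replicate gave 0 to 16 higher (16 without replicate 3, 5 without replicate 1, and 0 without replicate 2 or 4, where 66 and 60 had an unadjusted p under 0.05) and 0 to 2 lower. No receptor gene passed in these fits: DopEcR ranged from 0.23 to 0.60, CG11155 from 0.32 to 0.76, 5-HT1A from 0.06 to 0.23, nAChRbeta1 from 0.08 to 0.33 and 5-HT2A from -0.51 to -0.35. The lowest DopEcR and CG11155 values, 0.23 and 0.32, came without replicate 3, and the 0.06 of 5-HT1A did too. Without replicate 1 nAChRbeta1 was at 0.33. The cause of these shifts was not tested.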

Other observations

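Receptors for peptides and the proteins behind receptors gave no call in either reading (limma, 0 of 1444 genes in the opposite reading and 2, neither of them in these lists, in the likely one). Of 37 peptide receptor genes 5 were measured, with SPR, the sex peptide receptor gene, lowest at -0.18 and Lkr, the leucokinin receptor gene, highest at -0.03 in the likely reading. Dh31-R, a diuretic hormone receptor gene, was highest at 0.36 and SIFaR, the SIFamide receptor gene, lowest at -0.24 in the opposite reading.

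Of 39 genes for G proteins, second messengers and receptor regulators 8 were measured, with a median of -0.06 in the likely and -0.14 in the opposite reading. CanB, a calcineurin subunit gene, was lowest in the likely reading at -0.38 ± 0.22 (SD, n = 4; limma adjusted p = 0.624), and was highest in the opposite reading, at 0.13. The regulator of G-protein signalling loco was highest in the likely reading, at 0.09. Pka-R1, the regulatory subunit gene of the cyclic AMP-dependent kinase, had -0.62, -0.62, 0.53 and 0.60 on replicates 1 to 4 in the likely reading, with a mean of -0.03. Read the other way, all 4 values were between -0.62 and -0.53 and the mean was -0.59 (limma unadjusted p = 9.55e-04, adjusted p = 0.560). Of 13 assembly and clustering genes 4 were measured, with hig, a synaptic matrix gene, highest at 0.21 and the neuroligin gene Nlg1 lowest at -0.19; in the opposite reading they were at -0.59 and 0.32.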
